A study of Mus musculus with 6 samples.

Results

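The genes described here belong to the circadian clock and its direct outputs. They are 10 genes chosen by name, with earlier results of these data known: Arntl, Npas2, Per1, Per2, Per3, Cry1, Dbp, Tef, Ciart and Bhlhe41. Each was taken as the row of the array whose annotation gives that gene symbol and no other, and where a gene had several such rows, the row with the highest mean stood for it. Of the 10, 9 had a row, out of 19938 genes tested, and Npas2 was not analysed here. Ciart had 2 rows, and each of the other measured genes had 1.

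The study measured RNA of the scraped mucosa of the jejunum, the stretch of small intestine between duodenum and ileum. The ISR2 group held 3 arrays of transgenic C57/BL mice in which the transcription factor SREBP2 is overactive in the intestine, and the wild type group held 3 arrays of their littermates. All mice were 8 to 10 weeks old, ate regular chow freely and lived under 12 h of light and 12 h of dark a day. The sources used here give neither the construct behind the ISR2 line nor whether each array came from a mouse of its own. The p-values therefore measure only how these samples spread, which may be technical. The hour at which each jejunum was taken is also not given, and for genes that follow the day a difference in hour and a difference in genotype cannot be told apart. Values are log2 expression values, in which a difference of 1 is a factor of 2.

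The clock inside each cell is a loop of transcription and repression. Arntl, also called Bmal1, encodes the activator that binds DNA with CLOCK or with its relative NPAS2, at the sequence known as the E-box. Their targets include the repressors encoded by Per1, Per2, Per3, Cry1, Ciart and Bhlhe41, which act back on the activator, and the output factors encoded by Dbp and Tef, which switch on further genes at the sequence known as the D-box. Arntl itself is held down by the nuclear receptor NR1D1 at the sequence known as the RORE, so Arntl and E-box genes such as Dbp peak at about opposite times of day. In the intestine the loop runs in epithelial cells and follows the hours of feeding.

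Promoters of 4 of these genes are shown because they carry the elements by which the loop is wired and belong to the genes that the results turn on. They are RefSeq sequences of mouse build GRCm38.p6, given 5′ to 3′ along the gene from 250 bases before to 50 bases after the start of transcription. Capitals mark matches on either strand to the E-box CACGTG, the D-box TTANGTAA or the RORE core TAGGTCA. Ciart lies at chr3:95882179-95882478 on the minus strand, Per3 at chr4:151044616-151044915 on the minus strand, Per1 at chr11:69098699-69098998 on the plus strand and Arntl at chr7:113207261-113207560 on the plus strand.
Ciart: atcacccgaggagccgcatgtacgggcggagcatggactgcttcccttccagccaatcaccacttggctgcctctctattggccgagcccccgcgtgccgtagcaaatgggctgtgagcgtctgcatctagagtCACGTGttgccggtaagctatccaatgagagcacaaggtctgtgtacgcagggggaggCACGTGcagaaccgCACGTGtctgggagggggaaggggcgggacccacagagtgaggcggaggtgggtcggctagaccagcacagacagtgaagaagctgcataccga
Per3: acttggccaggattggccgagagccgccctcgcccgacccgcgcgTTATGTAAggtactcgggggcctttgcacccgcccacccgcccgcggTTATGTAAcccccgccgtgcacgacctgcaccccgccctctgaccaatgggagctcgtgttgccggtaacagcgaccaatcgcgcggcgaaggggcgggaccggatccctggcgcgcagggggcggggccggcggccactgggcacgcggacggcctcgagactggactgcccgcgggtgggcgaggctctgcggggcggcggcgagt
Per1: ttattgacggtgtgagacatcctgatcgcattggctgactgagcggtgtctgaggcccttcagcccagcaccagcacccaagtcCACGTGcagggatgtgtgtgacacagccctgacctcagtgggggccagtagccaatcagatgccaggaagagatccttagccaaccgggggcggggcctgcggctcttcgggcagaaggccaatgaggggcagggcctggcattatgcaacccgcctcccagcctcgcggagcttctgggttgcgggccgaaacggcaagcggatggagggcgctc
Arntl: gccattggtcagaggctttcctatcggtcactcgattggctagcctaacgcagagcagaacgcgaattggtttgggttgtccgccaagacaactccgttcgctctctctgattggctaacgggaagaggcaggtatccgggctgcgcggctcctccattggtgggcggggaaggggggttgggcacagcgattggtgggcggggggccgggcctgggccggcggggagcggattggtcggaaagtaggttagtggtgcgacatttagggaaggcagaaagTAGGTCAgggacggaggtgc
The Ciart promoter held 3 E-boxes, which begin at -116, -58 and -44 from the start site. That of Per3 held 2 D-boxes, at -205 and -158, and no E-box within the window. Per1 and Arntl have 2 promoters each in the table, and the one with a match is shown: 1 E-box at -166 for Per1 and 1 RORE core at 31 bases after the start for Arntl. The other promoter of Per1 held 0 E-boxes and the other of Arntl 0 RORE cores. In the table of 32851 promoters, 7.15% held this E-box, 2.32% the D-box and 2.61% the RORE core. Among the chosen genes, 9 had an entry in that table, with 12 promoters in all (Per2 had none), and 6 of these 12 promoters, from 5 genes, held an E-box. A core of the sterol regulatory element through which SREBP proteins act, TCACNCCAC on either strand, was in 1.24% of all promoters and in 0 of these 12. The matches do not overlap each other, and a match describes the letters only.

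The arrays differed from one another most in these genes within the wild type group, and this is given before the comparison because it touches the results of most of them; Cry1 and Bhlhe41 were the exceptions, at -0.11 and 0.11 from the mean of the other 2 wild type arrays on replicate 3. In wild type replicate 3, Per1, Per2, Per3, Dbp, Tef and Ciart had their lowest value of all 6 arrays, and Arntl its highest. Dbp stood at 9.84, 9.93 and 8.34 in wild type replicates 1, 2 and 3. The distance of replicate 3 from the mean of the other 2 wild type arrays was -1.55 for Dbp, and 0.0602% of all genes lay as far or farther on that array. The same distance was -1.64 for Ciart, -1.31 for Per1, -1.24 for Per2, -1.06 for Per3 and 1.04 for Arntl. So 6 of the 9 measured genes lay more than 1 log2 unit from the rest of their group on this array, against 0.487% of all genes. On ISR2 replicates 1, 2 and 3, 0 of the 9 did. Smaller distances in the same directions were seen on ISR2 replicate 3, at 0.58 for Arntl, -0.53 for Ciart and -0.49 for Per2. There 5.85%, 7.68% and 9.89% of all genes lay as far, and Per3 and Tef were at -0.06 and 0.06. ISR2 replicate 2 lay the other way for Arntl, Ciart and Per2, at -0.74, 0.47 and 0.57. The cause was not tested. Part of the distance of wild type replicates 1 and 2 in the map of distances comes from replicate 3, since it enters their reference.

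**Figure D1:**
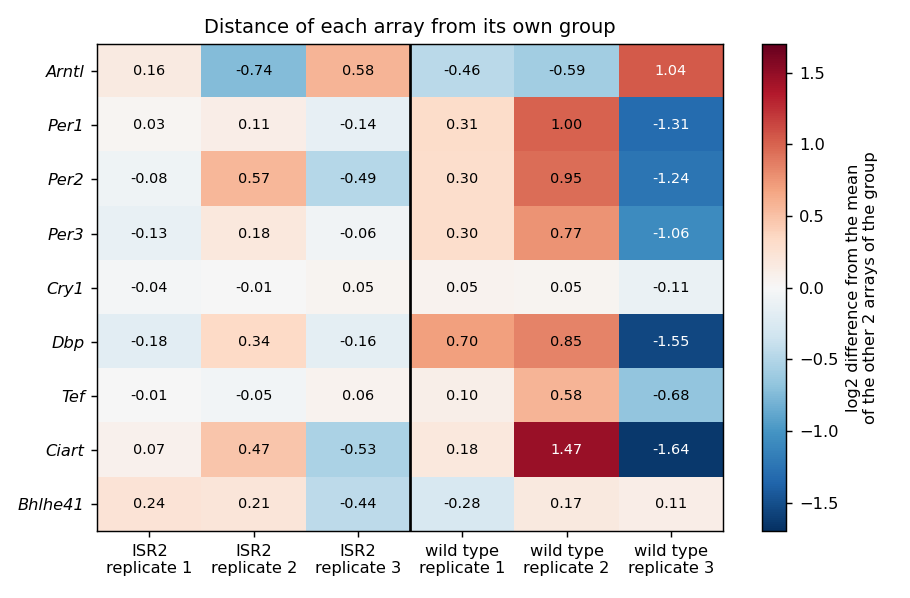
Each cell gives the log2 value of a gene (rows) on 1 array (columns, ISR2 left of wild type) minus the mean of the other 2 arrays of its group; red is higher and blue lower. Wild type replicate 3 is the column with the strong colours: -1.64 for Ciart and -1.55 for Dbp, with Arntl at 1.04 in the opposite direction.

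Some other facts about the arrays may bear on these genes. Array medians over all rows lay between 6.04 and 6.19. Srebf2 and its targets Hmgcs1, Sqle and Insig1 rose in ISR2 mucosa, and the 3 ISR2 arrays lay above the 3 wild type arrays in all 4, which is the direction the label of the line gives. Enterocyte markers were the brightest of the marker lists, with means of 12.6 to 12.8 on ISR2 arrays and 13.0 to 13.1 on wild type arrays over the 10 measured, of which 2 fell, where 1.23% of all genes fell. T cell markers, of which 5 of the 9 measured fell against the same 1.23% of all genes, had means of 6.60 to 7.16 on ISR2 arrays and 7.59 to 8.09 on wild type arrays, and their part in the values of the clock genes was not tested. Smooth muscle and stroma markers, 14 of 14 measured, had a mean of 8.70 on ISR2 replicate 2 against 7.67 and 7.76 on the other ISR2 arrays. On wild type replicate 2 it was 9.26, against 7.13 and 7.59 on the other wild type arrays. On ISR2 replicate 2 the muscle genes carried this, such as Myh11 at 10.77 against 8.28 and 8.54. The stroma genes Col1a1, Col1a2, Col3a1 and Pdgfra were lower there than on the other ISR2 arrays. Col1a1 was at 7.82 against 8.40 and 8.23, while Dcn and Vim lay between the other ISR2 arrays. The 2 arrays rich in muscle RNA were also the highest of their group in several clock genes: wild type replicate 2 in 7 of 9 and ISR2 replicate 2 in 5 of 9. The share of all genes highest on these arrays was not computed, so the counts show no link with muscle RNA. Wild type replicate 3 was the lowest wild type array in 7 of the 9, which left the other wild type arrays to be highest there. The muscle marker mean of wild type replicate 3, 7.59, lay between those of replicates 1 and 2. ISR2 replicate 2 was also the lowest ISR2 array in the Paneth, stem, myeloid and B and plasma cell means. The Paneth mean was 9.84 there against 10.73 and 10.94, and the stem mean 7.15 against 7.81 and 8.00. It was the highest ISR2 array in the enterocyte and T cell means, and the part of these cells in the clock genes was not tested. In tissue of mixed cells, fewer cells of a type and less RNA per cell cannot be told apart.

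The comparison asks whether the clock genes of the jejunum differ when SREBP2 is overactive. The sizes were largest for Ciart and Per3, both of which were higher in every ISR2 array than in any wild type array, and for Arntl, which was lower in every ISR2 array. Per1, Per2 and Dbp overlapped between the groups. With all 6 arrays and a threshold of 0.05 on limma's adjusted p, 0 of the 9 passed, where 3.02% of all genes did. At an unadjusted p of 0.05, 4 of the 9 passed (Arntl, Per3, Tef and Ciart), where 13.1% of all genes did. In 5 of the 9 genes all 3 ISR2 arrays lay on 1 side of all 3 wild type arrays, which held for 19.8% of all genes. Of these 3 were higher (5.87% of all genes) and 2 lower (13.9%). Because the genes were chosen with earlier results of these data known, the shares describe them and do not test the set against all genes. The fitted change was above 0 in 7 of the 9 and its median was 0.29, beside 7465 of 19938 genes above 0 and a median of -0.06 over all genes. Without wild type replicate 3, 1 of the 9 passed (2.38% of all genes), 4 of the 9 changes were above 0 and their median was -0.14, so the balance of signs rested on that array.

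**Figure D2:**
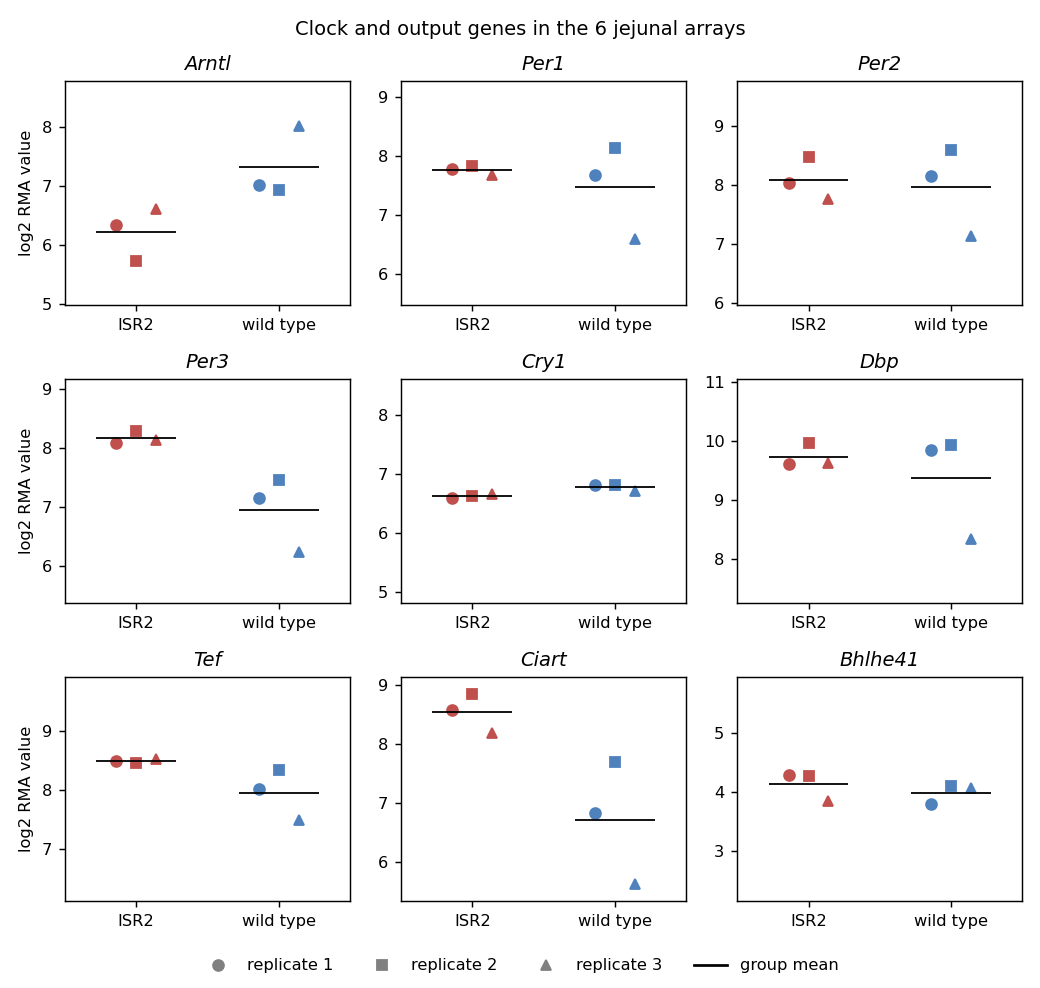
Log2 RMA value of each measured gene on the ISR2 arrays (red, left) and wild type arrays (blue, right), with a marker for each replicate number and a line at each group mean; every panel spans the same number of log2 units. Per3 and Ciart separate the groups, while for Per1, Per2 and Dbp only wild type replicate 3 stands apart, at 6.60, 7.13 and 8.34.

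Among the activators, Arntl was measured. Its log2 value was 6.33, 5.73 and 6.61 in ISR2 replicates 1, 2 and 3, and 7.01, 6.93 and 8.01 in wild type replicates 1, 2 and 3. Every ISR2 array lay below every wild type array, and both groups spread by close to a log2 unit. The means were 6.22 ± 0.45 in ISR2 and 7.32 ± 0.60 in wild type (SD, n = 3 each), a fitted change of -1.10 ± 0.31 (SE; 95% interval -1.80 to -0.39; limma adjusted p = 0.131). Without wild type replicate 3 the change was -0.75 ± 0.24 (SE; adjusted p = 0.226).

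The Period genes encode the proteins that enter the nucleus with the cryptochromes and stop the activator, and PER3 is the member that the loop can most easily do without. Per3 had 8.08, 8.28 and 8.12 in ISR2 mucosa, against 7.15, 7.46 and 6.24 in wild type mucosa. The ISR2 arrays agreed closely and the groups did not overlap. The means were 8.16 ± 0.11 in ISR2 and 6.95 ± 0.63 in wild type (SD, n = 3 each), a change of 1.21 ± 0.27 (SE; 95% interval 0.60 to 1.82), or 2.32-fold. The limma adjusted p was 0.0504, just short of the threshold. Per3 rose where either of 2 wild type arrays was left out: by 0.86 ± 0.16 without replicate 3 (SE; limma adjusted p = 0.0302) and by 1.47 without replicate 2 (adjusted p = 0.0244). Without any other single array it did not pass, with an adjusted p of up to 0.164.

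Per1 and Per2 did not follow Per3. Per1 had 7.78, 7.83 and 7.67 in ISR2 replicates 1, 2 and 3, against 7.67, 8.13 and 6.60 in wild type replicates 1, 2 and 3. Its ISR2 values lay inside the range of wild type, with a change of 0.29 ± 0.32 (SE; 95% interval -0.44 to 1.03; limma adjusted p = 0.786). Per2 had 8.04, 8.47 and 7.76 in ISR2 replicates 1, 2 and 3, against 8.16, 8.59 and 7.13 in wild type replicates 1, 2 and 3. The groups overlapped here too, with a change of 0.13 ± 0.34 (SE; 95% interval -0.63 to 0.89; limma adjusted p = 0.924). Without wild type replicate 3 both changes turned below 0, to -0.14 for Per1 and -0.29 for Per2, and neither passed (limma adjusted p = 0.802 and 0.675).

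The other repressors differed among themselves. Ciart, whose protein CHRONO binds the activator at E-boxes and silences it, had 8.58, 8.85 and 8.18 in ISR2 mucosa, against 6.84, 7.70 and 5.63 in wild type mucosa. The lowest ISR2 array stood above the highest wild type array, while the wild type arrays spanned 2.07 log2 units. The means were 8.54 ± 0.33 in ISR2 and 6.72 ± 1.04 in wild type (SD, n = 3 each), and the change of 1.82 ± 0.43 (SE; 95% interval 0.83 to 2.80), or 3.52-fold, was the largest among the 9 genes. Its limma adjusted p was 0.0683. Ciart rose by 2.31 without wild type replicate 2 (limma adjusted p = 0.0124), and was 1.27 ± 0.28 higher without wild type replicate 3 (SE; adjusted p = 0.0588). The second row of Ciart had 7.91, 8.20 and 7.64 in ISR2 mucosa, against 7.21, 7.10 and 6.22 in wild type mucosa. That row separated the groups as well, with a smaller change of 1.07 ± 0.28 (SE; limma adjusted p over all rows = 0.181, beside 0.18 for the first row).

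Cry1, a cryptochrome and the strongest repressor of the loop, was nearly flat. It had 6.60, 6.62 and 6.66 in ISR2 mucosa, against 6.82, 6.82 and 6.72 in wild type mucosa. The ISR2 arrays were all lower, but by a change of -0.16 ± 0.12 (SE; 95% interval -0.42 to 0.10; limma adjusted p = 0.652). Bhlhe41, or DEC2, which competes with the activator for the E-box, had 4.29, 4.27 and 3.84 in ISR2 mucosa, against 3.80, 4.10 and 4.06 in wild type mucosa. These values lie well below the array medians and no detection call was used, so Bhlhe41 was not shown to be above background. Its change was 0.15 ± 0.16 (SE; limma adjusted p = 0.787).

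Dbp and Tef encode the output factors of the PAR bZIP family, which bind the D-box. Dbp had 9.61, 9.96 and 9.62 in ISR2 mucosa, against 9.84, 9.93 and 8.34 in wild type mucosa. Leaving wild type replicate 3 aside, the groups lay within the same range, and the change of 0.36 ± 0.37 (SE; 95% interval -0.48 to 1.19; limma adjusted p = 0.766) became -0.16 ± 0.17 (SE; 95% interval -0.54 to 0.22; adjusted p = 0.76) without that array. Tef had 8.49, 8.46 and 8.54 in ISR2 mucosa, against 8.02, 8.34 and 7.50 in wild type mucosa. Its ISR2 values were tightly grouped and all above wild type, with a change of 0.54 ± 0.20 (SE; 95% interval 0.10 to 0.99; limma adjusted p = 0.263). Without wild type replicate 3 the change of Tef was 0.32 ± 0.16 (SE; limma adjusted p = 0.476).

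**Figure D3:**
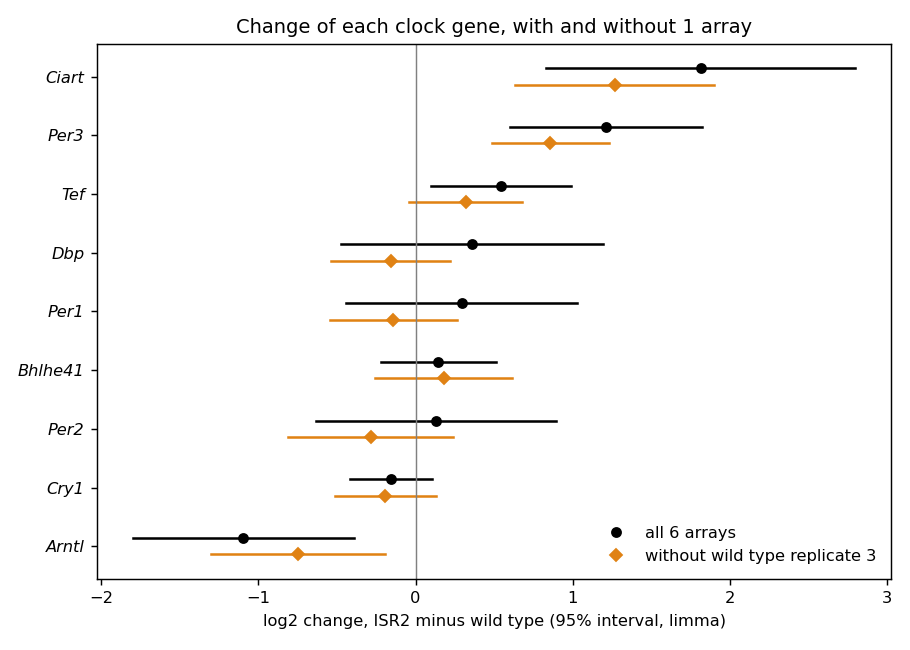
Fitted log2 change of each measured gene (ISR2 minus wild type) with its 95% interval, from all 6 arrays (black) and without wild type replicate 3 (orange). Ciart (1.82 and 1.27), Per3 (1.21 and 0.86) and Arntl (-1.10 and -0.75) keep their side of 0, while Dbp, Per1 and Per2 change theirs.

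The muscle content of the replicate 2 arrays was set against these values. With the mean of the smooth muscle and stroma markers as a covariate, Per3 rose by 1.20 ± 0.24 (SE; limma adjusted p = 0.0361) and Ciart by 1.79 ± 0.33 (SE; adjusted p = 0.0247), 2 of the 9 genes, where 2.96% of all genes passed. Without the replicate 2 array of both groups, Per3 rose by 1.41 and Ciart by 2.15 (limma adjusted p = 0.0425 and 0.0218), where 2.19% of all genes passed. Both fits were chosen after seeing the data. The covariate averages muscle and stroma genes, some of which went opposite ways on ISR2 replicate 2.

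Because wild type replicate 3 moved Per1, Per2, Per3, Dbp and Ciart together, the genes were also set against each other within each array, with every gene first centred on its own mean over the 6 arrays. Centring makes the group means of a pair equal and opposite, and each pair was ordered so that the ISR2 mean is the higher. The signs are therefore fixed, and only the distance between the groups and their spread are read. Ciart minus Per2 was 0.94, 0.78 and 0.81 in ISR2 replicates 1, 2 and 3, against -0.92, -0.50 and -1.11 in wild type replicates 1, 2 and 3. The groups lay 1.27 apart at their closest, farther than either group spanned, and wild type replicate 3 no longer stood alone. Ciart minus Per1 was 0.79, 1.00 and 0.50 in ISR2 mucosa, against -0.85, -0.45 and -0.99 in wild type mucosa. Per3 minus Per1 was 0.36, 0.51 and 0.51 in ISR2 mucosa, against -0.47, -0.61 and -0.30 in wild type mucosa, a difference of 0.92 between the group means. Per3 minus Per2 was 0.51, 0.28 and 0.83 in ISR2 mucosa, against -0.54, -0.66 and -0.42 in wild type mucosa. So Per3 and Ciart stood higher, relative to Per1 and Per2, on every ISR2 array than on any wild type array, a comparison that shows unequal values and not which gene moved.

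Taking Per3 or Ciart against Per1, Per2 or Dbp, the groups separated in 6 of 6 pairs, by 0.85 to 1.69 between group means. Among Per1, Per2 and Dbp they overlapped in 3 of 3 pairs, with differences of 0.07 to 0.23. These gene sets were picked after their values were seen. In all, 36 pairs were compared and 19 separated the groups. The pairs reuse the same 9 genes, of which 5 separated the groups on their own, so they are not independent. The share among pairs of all genes was not computed, so these counts of pairs have nothing to be set against. The exact permutation test of 3 arrays against 3 cannot give a two-sided p below 0.1, which each separated pair reached; the smallest adjusted over the 36 pairs was 0.189.

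**Figure D4:**
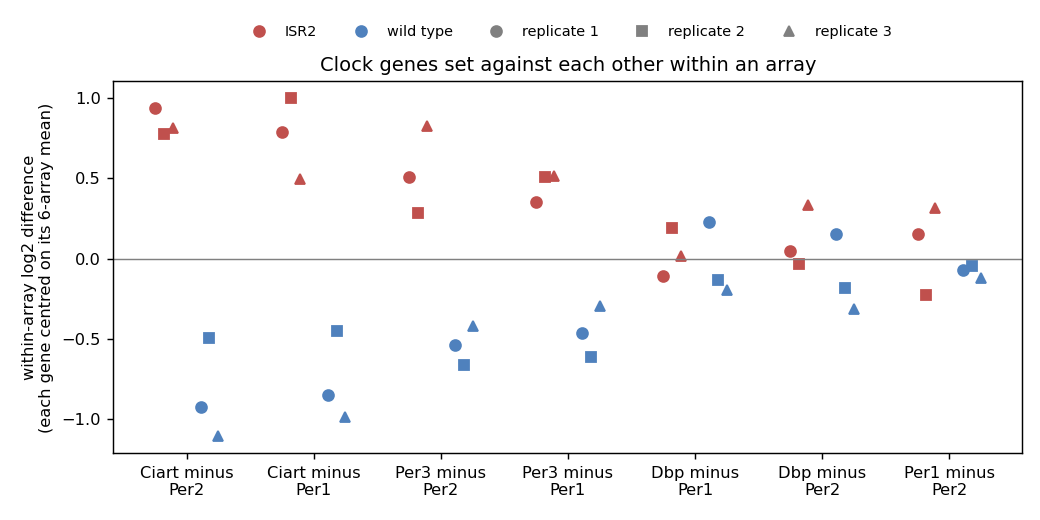
Within-array log2 difference of 2 genes, each centred on its mean over the 6 arrays, for ISR2 arrays (red, left in each pair) and wild type arrays (blue), with a marker for each replicate number. The groups are apart for Ciart and Per3 against Per1 and Per2, and overlap among Per1, Per2 and Dbp.

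Beyond the 9 genes, 17 of 19 other genes of the clock machinery were measured. Of these 1 rose, 0 fell and 16 did not pass, beside 1.79% of all genes that rose and 1.23% that fell; the median change was 0.01. The gene that rose was Bhlhe40, or DEC1, the close relative of Bhlhe41. Bhlhe40 had 8.69 on each of the ISR2 arrays, against 8.08, 8.17 and 7.96 in wild type mucosa. The groups were far apart for their spread, and the change was 0.62 ± 0.12 (SE; limma adjusted p = 0.0252), or 1.54-fold. That call held without ISR2 replicate 2 and was lost without any other single array: leaving out ISR2 replicate 1 or 3 gave an adjusted p of 0.117 or 0.0773, and leaving out wild type replicate 1, 2 or 3 gave 0.103, 0.0590 or 0.0989.

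The next smallest p-values of that list belonged to Nfil3, Nr1d1 and Arntl2. Nfil3, a repressor that competes with DBP and TEF for the D-box, had 6.93, 6.20 and 6.80 in ISR2 mucosa, against 7.16, 7.15 and 7.85 in wild type mucosa, a change of -0.74 ± 0.24 (SE; limma adjusted p = 0.204). Nr1d1, or REV-ERBα, which represses Arntl, had 10.80, 10.52 and 10.86 in ISR2 mucosa, against 11.53, 11.40 and 10.90 in wild type mucosa. All ISR2 arrays lay below wild type, though wild type replicate 3 lay close to them, and the change was -0.55 ± 0.18 (SE; limma adjusted p = 0.22) with all arrays and -0.74 without that one (adjusted p = 0.0613). Arntl2, a relative of Arntl, was 0.27 ± 0.12 higher (SE; limma adjusted p = 0.364). Clock, the partner of ARNTL, had 8.32, 8.19 and 8.65 in ISR2 mucosa, against 8.45, 8.59 and 8.72 in wild type mucosa, and was named for that role. Wild type replicate 3 lay more than 0.5 from the other wild type arrays in 3 of the 17 genes, at 0.70 for Nfil3, -0.57 for Nr1d1 and -0.59 for Nr1d2, against 7.31% of all genes; 7 of the 9 clock genes lay as far.

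Genes that the clock drives in many tissues were measured in 15 of 17 cases, of which 1 rose, 0 fell and 14 did not pass, where 1.79% of all genes rose and 1.23% fell. Their median change was 0.06, beside -0.06 over all genes. Nampt, the rate-limiting enzyme that recycles nicotinamide into NAD, had 10.48, 10.84 and 10.28 in ISR2 mucosa, against 9.56, 9.51 and 9.21 in wild type mucosa. The groups did not overlap and the rise was 1.11 ± 0.17 (SE; limma adjusted p = 0.00791), or 2.16-fold. It passed without each of the 6 arrays in turn, with an adjusted p of up to 0.0430. Tsc22d3, a glucocorticoid-induced leucine zipper gene, was 0.61 ± 0.16 higher (SE; limma adjusted p = 0.11) and passed without wild type replicate 2 (adjusted p = 0.0449). Klf10, a Krüppel-like repressor, was 0.47 ± 0.14 higher (SE; limma adjusted p = 0.151), and Ppard, a nuclear receptor for fatty acids, was -0.38 ± 0.16 (SE; adjusted p = 0.345).

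Absorption genes whose levels are known to follow the day in rodent intestine were measured in 10 of 10 cases. Of these 0 rose, 1 fell and 9 did not pass, where 1.79% of all genes rose and 1.23% fell. Their median change of -0.06 was that of all genes, with 4 changes above 0 and 6 below. The groups separated in 7 of the 10, of which 3 were higher and 4 lower, where 19.8% of all genes separated. At an unadjusted limma p of 0.05, 5 of the 10 passed, where 13.1% of all genes did. The list was chosen with earlier results of these data known, so these shares only describe it. Slc15a1, the peptide transporter of the brush border, had 10.87, 11.16 and 10.88 in ISR2 mucosa, against 12.31, 12.35 and 11.89 in wild type mucosa. It fell by 1.21 on the log2 scale (SE 0.16; limma adjusted p = 0.00348) and passed without each array in turn, with an adjusted p of up to 0.0287. Slc9a3, a sodium-hydrogen exchanger, was 0.49 ± 0.14 higher (SE; limma adjusted p = 0.117) and Abcb1a, a drug exporter, 0.54 ± 0.18 higher (SE; adjusted p = 0.215). Apoa4, an apolipoprotein of chylomicrons, was -0.49 ± 0.14 (SE; limma adjusted p = 0.147) and passed without ISR2 replicate 2 (adjusted p = 0.0449).

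**Figure D5:**
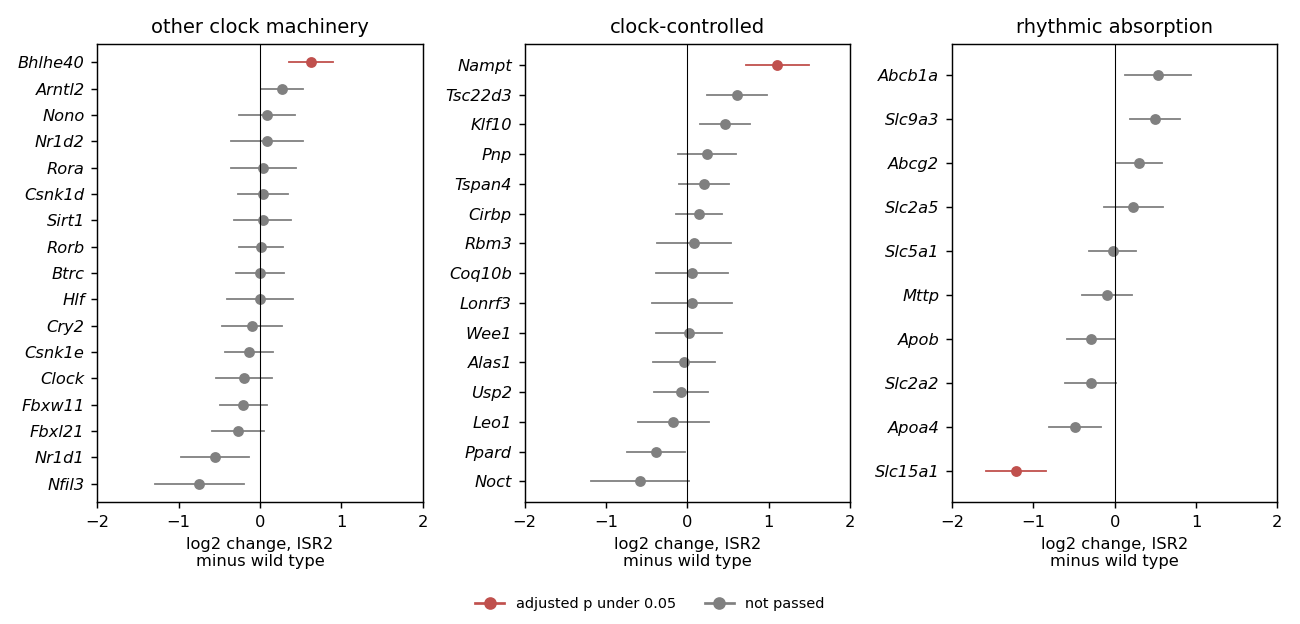
Fitted log2 change (ISR2 minus wild type) with its 95% interval for 17 other genes of the clock machinery, 15 clock-controlled genes and 10 rhythmic absorption genes; red marks an adjusted p under 0.05. Bhlhe40 (0.62) and Nampt (1.11) rose and Slc15a1 fell by 1.21, and the other intervals belong to genes that did not pass.

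Per1 also answers to stress signals and to glucocorticoids, so the genes of those responses were measured beside it. Of 12 immediate early genes, which are switched on within minutes of a stimulus, 2 fell and 0 rose, beside 1.23% of all genes that fell and 1.79% that rose. Fosb fell by 1.41 (SE 0.18; limma adjusted p = 0.00245) and Jun by 1.19 (SE 0.17; adjusted p = 0.00539), while Dusp1, a phosphatase of the kinases upstream, was -0.80 ± 0.23 (SE; adjusted p = 0.133) and Ier3 0.45 ± 0.22 (SE; adjusted p = 0.43). Of the 8 measured genes of 9 that glucocorticoids induce, Per1 among them, 1 fell and 0 rose, against the same shares of all genes. That gene was Errfi1, a brake on the EGF receptor, which fell by 0.93 (SE 0.17; limma adjusted p = 0.0186); without ISR2 replicate 1 or 3 or wild type replicate 1 or 2 it did not pass (adjusted p = 0.0963, 0.0636, 0.0938 and 0.0584). Fkbp5, a chaperone partner of the glucocorticoid receptor, was 0.48 ± 0.18 higher (SE; limma adjusted p = 0.295). The part of either response in the values of Per1 was not tested.

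The genes whose pattern over the 6 arrays was most like that of Arntl, among 15701 genes with a mean of at least 5, were Pip5k1b, Scamp2 and Pdia2, with Pearson's r of 0.996, 0.994 and 0.991. The most opposite were Mtmr11, Spag9 and Rab11fip2, at -0.994, -0.986 and -0.982. For Dbp the most alike were Rn7sk, Dcun1d1 and Snord14e, at 0.984, 0.980 and 0.976, and the most opposite were Clca1, Dsg2 and Dhx58, at -0.989, -0.985 and -0.979. These correlations describe 6 arrays and are the extremes of many. Wild type replicate 3 was the lowest array of Dbp and of the genes named as most like it, and the highest of those most opposite. Ranges could be small: Rn7sk had 14.32 on that array and 14.39 to 14.44 on the others. Clca1, a goblet cell gene, had 11.75, 11.62 and 11.69 in ISR2 mucosa, against 11.67, 11.54 and 12.29 in wild type mucosa, so wild type replicate 3 was its highest array and the lowest of Dbp.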

How the data were processed

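For the 6 arrays the authors deposited log2 expression values, with RMA named in the submitters' processing notes; values ran between 1.44 and 14.8, which is how the log2 scale was recognised. RMA corrects background and equalises the distributions of the arrays, so a change shared by most genes is removed. The sources used here give no version or filter. Of 35556 rows, 21789 had 1 gene symbol, which left 19938 genes, the row with the highest mean standing for a gene; all 9 measured clock genes matched GRCm38.p6 by Entrez ID. Titles of the samples gave the groups. ISR2 was set against wild type in limma 3.58.1 (R 4.3.3; lmFit, then eBayes) with no covariate, and two-sided p-values over all 19938 genes were given a Benjamini-Hochberg adjustment and a threshold of 0.05. The fit was tested on simulated data. Within-array differences were tested with the exact permutation test of scipy 1.17.1. The precision is limited by the number of arrays. Genes named were the 10 clock genes, the 4 smallest p-values and any further call of each supporting list, and the 3 genes most and least like Arntl and Dbp; Clock and Nr1d2 were added after their values were seen. The clock genes and lists were chosen with earlier results of these data known. Equal replicate numbers were not taken as pairs, because the labels do not say that they pair samples. The deviations of equal numbers from the group means correlated at -0.016, 0.323 and 0.54 over genes for replicates 1, 2 and 3. The alternatives tried were array weights, an intensity trend, robust eBayes, quantile normalization, median centring, all rows tested, the mean of a gene's rows, a filter at a mean of 5, the replicate block and leaving out each array.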

Additional observations from a re-analysis of the deposited data

How the results depend on the processing

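Both the counts of calls and the sizes of the changes moved with the processing. Over the alternatives the change of Ciart ran from 1.11 to 2.31 and that of Arntl from -1.29 to -0.50. The count of clock genes called was 0 of 9 with limma on all arrays, where 602 of 19938 genes were called. It was also 0 with robust eBayes, quantile normalization or all rows tested (613, 630 and 340 of 19938 genes). An intensity trend or the mean of a gene's rows gave 1 (620 and 607 of 19938 genes). A filter at a mean of 5 gave 1 of the 8 clock genes kept (623 of 15709 genes). Median centring or an adjusted p of 0.10 gave 2 (570 and 837 of 19938 genes). Array weights gave 3, of which 2 were higher and 1 lower (1268 of 19938 genes). The count was 0 to 2 with 1 array left out (335 to 589 of 19938 genes). In fits added after seeing the data, it was 2 without replicate 2 of both groups (436 of 19938 genes). With the smooth muscle mean as a covariate it was 2 (590 of 19938). With ISR2 replicate 2 and wild type replicate 3 both left out it was 1 (775 of 19938). Per3 passed in 11 of 18 alternatives, Ciart in 6 and Arntl in 2. The 18 include the fits added after seeing the data, in each of which Per3 passed. With the trend, the filter and the mean of rows, the limma adjusted p of Per3 was 0.0497, 0.0488 and 0.0499, beside 0.0504 in the main fit. All alternatives reuse the same 6 arrays, so the tally is no separate support. Signs turned for Per1, to -0.14 without wild type replicate 3 and -0.18 without that array and ISR2 replicate 2, for Dbp, to -0.16 and -0.27, and for Per2, to -0.29 and -0.47, and to -0.06 without ISR2 replicate 2. With wild type replicate 2 left out, the changes of Per1, Per2 and Dbp reached their highest, 0.63, 0.45 and 0.64. The cause was not tested.

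With the replicate number as a block, 3 clock genes passed, with 2 clock-controlled genes and 778 of all genes. Per3 and Ciart were higher and Arntl lower (limma adjusted p = 0.0150, 0.00382 and 0.00688). The samples are not said to be paired and share only a number. By deviations from the group means, ISR2 replicates 2 and 3 correlated best with wild type replicates 2 and 3 (0.323 and 0.54). ISR2 replicate 1 correlated best with wild type replicate 3 (0.134).

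The other clock machinery, 1 call, had 0 with all rows tested, without replicate 2 of both groups and with ISR2 replicate 2 and wild type replicate 3 both left out, and 0 to 1 with 1 array left out. The clock-controlled genes, 1 call, had 3 with array weights, 2 with that same pair of arrays left out, and 1 to 2 with 1 array left out. The absorption genes, 1 call, had 3 with array weights and 1 to 2 with 1 array left out. Over all genes, 602 calls became 1268 with array weights, 340 with all rows tested, 335 to 589 with 1 array left out and 775 with that pair left out. Median centring turned the split of 356 higher and 246 lower into 415 and 155. Signal over background was not available, which limits Bhlhe41 most.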
